A study of Homo sapiens with 2 samples.

Results

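The 8 genes described here were USH1C, TMEM238, CLIC3, SLC29A4, SLC38A3, VIPR2, TMBIM4 and SPINK13 out of the 20981 genes listed in the count table. They were selected on large differences in counts between a library of cells with a hairpin against WBSCR22 and a control library, and each had 1 row in the tables of counts and FPKM (fragments scaled to exon length and library size). The working name of the group, membrane and transport genes, holds for most of them. SPINK13 encodes a secreted protease inhibitor and USH1C a scaffold inside the cell, so the products of these genes are not all membrane proteins. The cells were labelled PANC-1, an established human line from a carcinoma of the pancreatic duct, and their treatment was given as shCtrl, the control hairpin, or shWBSCR22. The targeted gene is now named BUD23 and encodes an enzyme that methylates small-subunit ribosomal RNA. There was 1 library per group, so no difference has a replicate check, no p-value was computed, and every value compares these libraries, not the conditions. Time of treatment, the number of hairpins, and whether the cells of a group came from 1 clone are unstated in the labels.

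The libraries held 16121638 counts in shCtrl and 15248099 in shWBSCR22. BUD23 itself had 3487 and 1892 counts, 39.1% lower after scaling. Of 8 markers of ductal epithelium, KRT8, KRT18 and KRT7 were abundant in both libraries (12142 to 77459 counts). KRT19 was listed at 0 in both, EPCAM had 15 and 0 counts and CDH1 had 2 and 0. MUC1 had 4734 and 8434 counts and SOX9 106 and 95. CDKN2A, which is known to be deleted in PANC-1, had 12740 counts in shCtrl and 6346 in shWBSCR22, so the tables go against the cell line label at this gene, and the identity of the cells was not tested. Acinar markers had no row in the tables used here. Of 6 leukocyte markers, MPO went with shCtrl (692 and 21 counts) and so did LYZ (191 and 0). Of 5 fibroblast markers the summed level was 58.6 CPM (counts scaled to a common library size) in shCtrl and 129 CPM in shWBSCR22. Most of this sum came from COL1A1 (839 and 1768 counts). COL3A1 was listed at 0 in both libraries. DCN (10 and 44 counts), LUM (32 and 56) and PDGFRB (64 and 102) were low. The leukocyte markers PTPRC and CD3E had no row. The summed level of the 4 leukocyte markers with a row was 57.4 and 3.74 CPM, and that of 8 ductal markers 9344 and 8237 CPM. By the counting interval, though not the wider one, the neuron markers SNAP25 (12 and 45 counts) and RBFOX3 (15 and 35) and the endothelial marker PECAM1 (14 and 46) were higher. The endothelial marker CDH5 was listed at 0 in both libraries, and the endothelial marker VWF and the neuron marker STMN2 had no row. Among enterocyte markers, where USH1C is normally abundant, ALPI had 382 and 547 counts, CDX2 9 and 0, and VIL1, FABP1, FABP2 and SI had no row. The part of these differences in the results below was not tested, and a larger share of cells with a transcript cannot be told apart from more of it per cell.

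Solute carriers move small molecules across membranes along or against their gradients, with SLC29A4 serving monoamines and SLC38A3 glutamine. VIPR2 is a G protein-coupled receptor that raises cyclic AMP when it binds vasoactive intestinal peptide, which in the pancreas stimulates secretion of fluid and bicarbonate by ducts. CLIC3 is a member of a family that exists both as soluble and as membrane-bound protein, and it is known from pancreatic and ovarian carcinoma cells for returning integrins from late endosomes to the surface. Harmonin, the product of USH1C, ties cadherins at the tips of microvilli and stereocilia to the cytoskeleton.

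Ratios are given on the log2 scale as shWBSCR22 over shCtrl, from counts scaled by TMM with 0.5 counts added to each library. Each has a 95% counting interval, which takes every read as independent. A wider 95% interval allows for reads that are not independent. For it the control counts were divided by 8 and the knockdown counts by 15, the commonest low counts above 0 in each table column. Both cover counting error only. Calls of higher or lower required a difference of at least 2-fold and an interval without 0.

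All 8 genes passed the filter of a mean of at least 1 CPM, which 12980 genes passed. All 8 were called higher with the counting interval, as were 12.2% of the genes tested, and all 8 with the wider interval, as were 4.19%. All 8 were also at least 4-fold higher, as were 3.7% of the genes tested. Since this difference chose the genes, nothing is read from these counts. In the opposite direction 11.9% of genes were called lower by counting and 2.98% by the wider interval. No threshold is given for the choice. Ranked by the lower bound of the wider interval, the genes lie at places 1, 2, 4 and 7 to 11 of 12980. LRG1, ISG15 and MAFA stood between them at places 3, 5 and 6, and OASL followed at place 12, with a bound of 1.597 beside 1.605 for SPINK13.

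**Figure D1:**
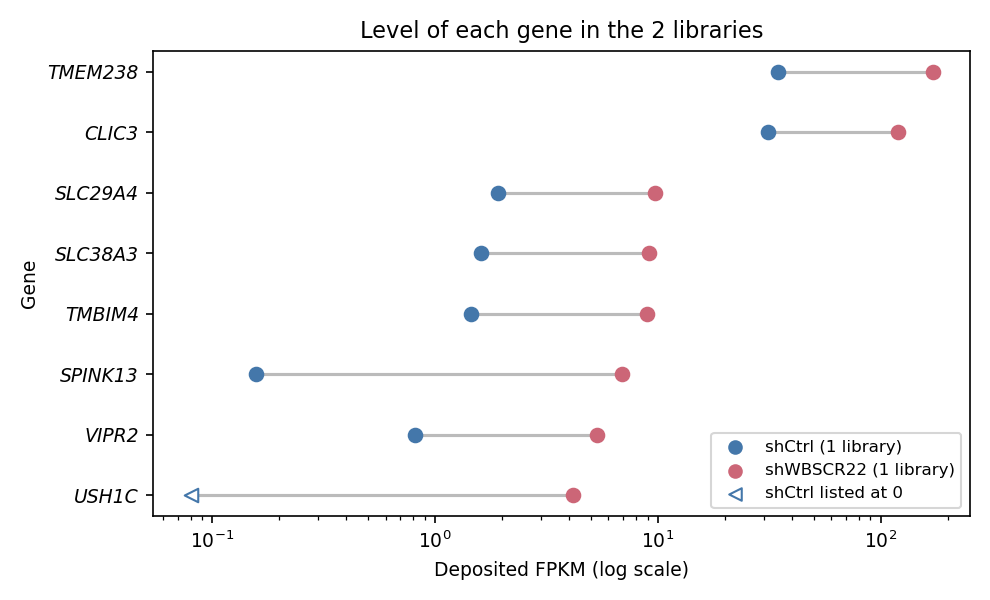
Deposited FPKM (horizontal, log scale) of the 8 genes (vertical) in the shCtrl library (blue) and the shWBSCR22 library (red), 1 library each; the open triangle marks a value listed at 0, drawn at the left edge. TMEM238 and CLIC3 lie above 30 FPKM in both libraries, and the other genes lie under 2 FPKM in shCtrl and between 4.18 and 9.68 FPKM in shWBSCR22.

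TMEM238 was the most abundant of the genes in shWBSCR22. It encodes a small transmembrane protein whose function is not described here (ENSG00000233493, GRCh38, chromosome 19, 55379245 to 55384598, minus strand). It had 558 counts (34.5 FPKM) in shCtrl and 2620 counts (171 FPKM) in shWBSCR22. The ratio was 2.40, a 5.26-fold difference. Its counting interval ran from 2.26 to 2.53, the wider from 1.99 to 2.82. By FPKM, TMEM238 moved from above 91.8% of the detected genes in shCtrl to above 97.6% in shWBSCR22.

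CLIC3 (ENSG00000169583, chromosome 9, 136994635 to 136996803, minus strand) had the smallest ratio of the 8 genes and, after TMEM238, the highest level. It had 594 and 2155 counts in shCtrl and shWBSCR22, or 31.2 and 120 FPKM. The ratio was 2.02, or 4.07-fold. Its counting interval ran from 1.89 to 2.16, the wider from 1.61 to 2.45. With total-count scaling the ratio was 1.94, so CLIC3 then fell short of 4-fold.

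By FPKM, both solute carriers lay near the middle of the detected genes in shCtrl, SLC29A4 above 53.6% and SLC38A3 above 49.7% of them. SLC29A4, the plasma membrane monoamine transporter, carries serotonin and dopamine and also other organic cations (ENSG00000164638, chromosome 7, 5274369 to 5306870, plus strand). It had 180 counts (1.92 FPKM) in shCtrl and 861 counts (9.68 FPKM) in shWBSCR22. The ratio was 2.42 (counting interval 2.19 to 2.66, wider interval 1.70 to 3.20). SLC38A3, a sodium-coupled glutamine transporter known from liver, kidney and astrocytes (ENSG00000188338, chromosome 3, 50205246 to 50221486, plus strand), had 103 and 556 counts, or 1.61 and 9.15 FPKM. Its ratio was 2.59. Its counting interval ran from 2.29 to 2.92, the wider from 1.65 to 3.64. The transporters thus lay close together in level in each library.

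VIPR2, the receptor (ENSG00000106018, chromosome 7, 159028175 to 159144957, minus strand), spans 117 kb and was the second lowest of the 8 genes by FPKM in shWBSCR22. It had 69 counts (0.817 FPKM) in shCtrl and 425 counts (5.32 FPKM) in shWBSCR22. The ratio was 2.78. Its counting interval ran from 2.42 to 3.18, the wider from 1.65 to 4.08. TMBIM4, a Golgi membrane protein that restrains calcium release and apoptosis (ENSG00000155957, chromosome 12, 66135846 to 66170072, minus strand), had 97 and 569 counts, or 1.45 and 8.98 FPKM. Its ratio was 2.71. Its counting interval ran from 2.41 to 3.04, the wider from 1.75 to 3.79. In shWBSCR22, TMBIM4 and SLC38A3 had nearly equal levels per length, 8.98 and 9.15 FPKM.

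USH1C and SPINK13 were at or near 0 in shCtrl. USH1C (ENSG00000006611, chromosome 11, 17493895 to 17544416, minus strand) had 0 counts (0 FPKM) in shCtrl and 314 counts (4.18 FPKM) in shWBSCR22. The lower bound of the log2 ratio was 6.57 by counting and 3.45 by the wider interval. Among genes with 0 counts in shCtrl, 4 had at least 100 in shWBSCR22, and 314 was the highest. In the opposite direction 8 genes had 0 in shWBSCR22 and at least 100 in shCtrl, with up to 191, so counts of 0 beside many were found in both directions.

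SPINK13, a Kazal-type inhibitor of serine proteases (ENSG00000214510, chromosome 5, 148268180 to 148286254, plus strand), had 3 counts (0.158 FPKM) in shCtrl and 124 counts (6.90 FPKM) in shWBSCR22. Its ratio was 5.32. Its counting interval ran from 3.95 to 7.83, the wider from 1.60 to 18.88. The width of the latter shows how little 3 counts fix the control level. The counts of SPINK13 itself were then taken as limits, so SPINK13 meets them by construction. USH1C and SPINK13 were the 2 genes with at most 3 counts in shCtrl and at least 124 in shWBSCR22. The reverse held for 3 genes.

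**Figure D2:**
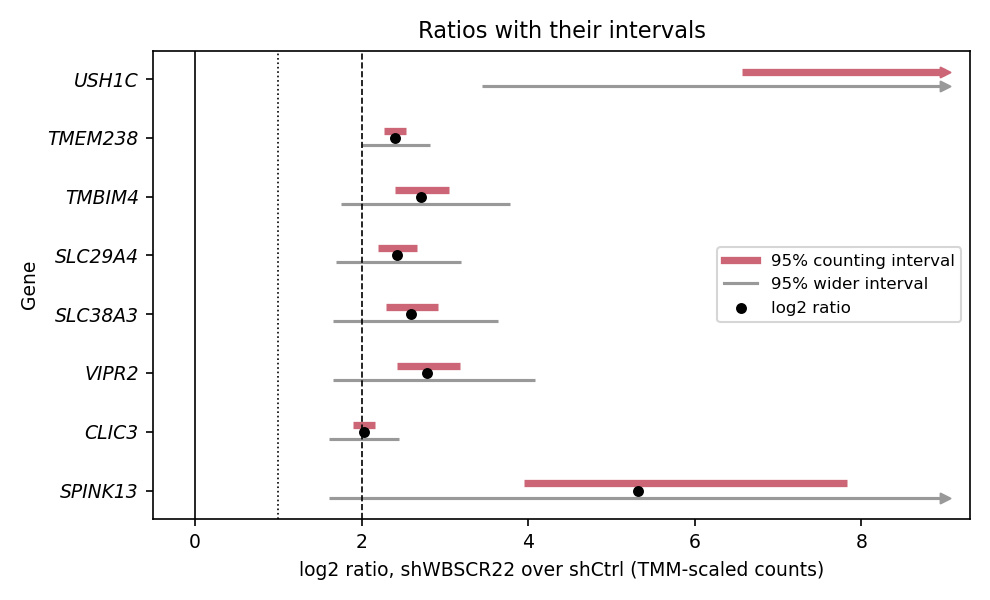
Ratios of shWBSCR22 over shCtrl on the log2 scale (horizontal) for the 8 genes (vertical), with black points for the ratio, thick red bars for the 95% counting interval and thin grey bars for the wider 95% interval; arrows mark bounds beyond the axis, USH1C has no point because shCtrl had 0 counts, and the dotted and dashed lines mark 2-fold and 4-fold. All lower bounds lie above 1, the lowest of them at 1.60 for SPINK13 and 1.61 for CLIC3 with the wider interval.

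**Figure D3:**
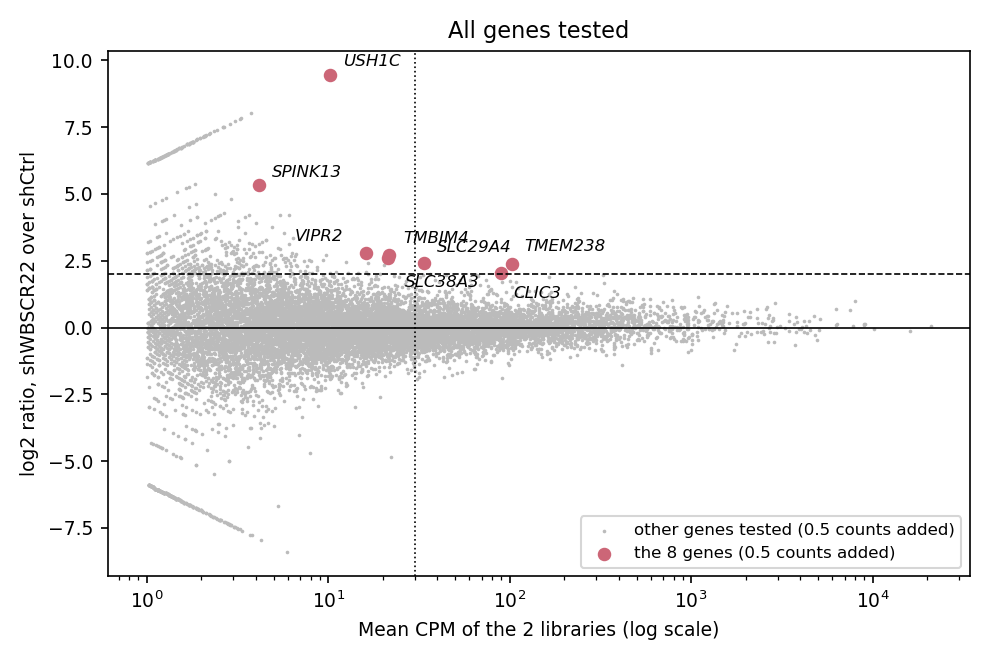
Ratio on the log2 scale with 0.5 counts added (vertical) against the mean CPM of the libraries (horizontal, log scale) for 12980 genes tested (grey) and the 8 genes (red); the dashed line marks 4-fold and the dotted line 30 CPM. The grey cloud narrows to the right, and the 8 genes, chosen for this difference, lie above the dashed line, with CLIC3 nearest to it at 2.02; the height of USH1C, with 0 counts in shCtrl, depends on the 0.5 counts added.

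The FPKM add no measurement to the counts for these genes. The length implied by each FPKM, its count and the library total in shWBSCR22 was 100.4% of the combined exon length of the gene in GENCODE release 29 for all 8 genes, which ran from 1000 bases for TMEM238 to 5811 for SLC29A4. The deposited coordinates of all 8 genes equal those of that release, which lists each as protein coding with between 1 (TMEM238) and 14 (TMBIM4) transcripts. By FPKM, the order of the genes in shWBSCR22 was TMEM238, CLIC3, SLC29A4, SLC38A3, TMBIM4, SPINK13, VIPR2 and USH1C. In shCtrl it was the same except that VIPR2 stood above SPINK13. With 1 library each, the neighbours SLC29A4, SLC38A3 and TMBIM4 in that order have no spread by which to tell them apart.

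The sequence upstream of the start was compared for the genes with an entry in the RefSeq promoter table used here. This table (GRCh38.p14, 250 bases before to 50 after a start) held 8 entries for 6 of the genes, and none for SLC38A3 and TMBIM4. USH1C and VIPR2 had 2 entries each. The 250 bases before the start are shown for the genes with the highest levels and for those at or near 0 counts in shCtrl, 5′ to 3′ on the strand of the gene. They lie at chr11:17544417-17544666 (USH1C, minus), chr19:55384293-55384542 (TMEM238, minus), chr9:136996569-136996818 (CLIC3, minus) and chr5:148268544-148268793 (SPINK13, plus). Capitals mark GC boxes (GGGCGG) in the first 3 and a CCAAT box (CCAAT) and an AP-1 site (TGAGTCA) in SPINK13, each searched on both strands.
USH1C: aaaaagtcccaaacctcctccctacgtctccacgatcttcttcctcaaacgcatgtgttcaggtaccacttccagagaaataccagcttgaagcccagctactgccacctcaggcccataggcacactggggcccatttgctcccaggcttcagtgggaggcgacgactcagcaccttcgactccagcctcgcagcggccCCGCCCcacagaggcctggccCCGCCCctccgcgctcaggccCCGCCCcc
TMEM238: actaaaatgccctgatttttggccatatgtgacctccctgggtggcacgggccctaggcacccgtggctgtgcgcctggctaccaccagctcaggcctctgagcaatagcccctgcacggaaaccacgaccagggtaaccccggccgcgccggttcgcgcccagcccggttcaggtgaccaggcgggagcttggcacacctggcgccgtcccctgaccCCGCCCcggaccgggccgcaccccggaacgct
CLIC3: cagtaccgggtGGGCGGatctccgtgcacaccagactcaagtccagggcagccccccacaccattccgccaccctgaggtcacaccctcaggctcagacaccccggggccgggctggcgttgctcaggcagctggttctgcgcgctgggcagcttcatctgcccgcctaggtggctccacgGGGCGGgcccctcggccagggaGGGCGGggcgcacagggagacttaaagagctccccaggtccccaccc
SPINK13: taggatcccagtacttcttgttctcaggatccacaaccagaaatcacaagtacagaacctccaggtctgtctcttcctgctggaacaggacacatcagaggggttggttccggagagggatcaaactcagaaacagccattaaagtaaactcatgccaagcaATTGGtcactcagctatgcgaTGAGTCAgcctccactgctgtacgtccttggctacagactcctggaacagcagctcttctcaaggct

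The promoters differed in composition. That of SPINK13 had 49.7% G and C and 3 CpG in 300 bases; the median G and C content of all 35116 promoters was 58.7%. The first entry of USH1C had 65.0% and 20 CpG, TMEM238 71.0% and 28, CLIC3 70.3% and 20, SLC29A4 72.0% and 18, and the first entry of VIPR2 79.7% and 42. The second entries of USH1C and VIPR2 had 54.0% each, with 5 and 12 CpG. GC boxes numbered 4 in USH1C, 1 in TMEM238, 3 in CLIC3, 3 in SLC29A4 and 5 in VIPR2, all in the first entries, and 0 in SPINK13 and in both second entries; 45.0% of all promoters hold at least 1. The AP-1 letters of SPINK13, 67 bases before its start, occur in 4.95% of promoters, and its CCAAT box in 34.6%. None of the 8 entries held the letters TATAAA or CACGTG, which occur in 11.5% and 7.26% of promoters. The letters TGACGTCA, the cyclic AMP response element, occurred in the second entry of USH1C and in 1.85% of promoters. In SPINK13 a stretch of 43 bases from 34 bases before the start recurs 41 bases further on. The copies overlap, and the second runs to the end of the 300 bases, so the repeat may be cut short there. The RefSeq start lay at the deposited gene start for the first entry of USH1C, and 8574 bases away for SLC29A4. It lay 306 bases away for TMEM238, 235 for CLIC3, 614 for SPINK13 and 90 for the first entry of VIPR2. For the second entries of USH1C and VIPR2 the distances were 10531 and 47753 bases. Which start these cells use was not measured. A match of letters is a description, and binding was not measured.

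Relatives of each gene were examined to see which family members were higher with it. Lists of families and pathways held 203 further genes, of which 157 had a row and 122 were tested. Of these, 19 were higher and 9 lower by the counting interval (9 and 3 by the wider interval). Over all genes tested, 12.2% were higher and 11.9% lower by counting, and 4.19% and 2.98% by the wider interval. These shares are the background for every list below. Higher genes outnumbered lower ones on the lists. The numbers over all genes tested were 1586 and 1546 by counting and 544 and 387 by the wider interval. A difference of the lists from all genes was not tested. The median ratio of the listed genes was 0.07, beside -0.02 over all genes tested.

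Nucleoside and amino acid transporters related to the solute carriers were not called. SLC29A1, SLC29A2 and SLC29A3, which carry nucleosides, had ratios of -0.55, 0.21 and -0.38. SLC29A4 accounted for 2.33% of the summed FPKM of the 4 SLC29 genes in shCtrl and 11.8% in shWBSCR22, and moved from the lowest to the third place. Of 6 other SLC38 genes tested, 0 were called, and their ratios ran from -0.71 for SLC38A1, a transporter of glutamine and alanine, to 0.75 for SLC38A2, its close relative. SLC38A3 moved from place 7 to place 4 of 8 by FPKM, from 2.25% to 11.8% of the family sum. Of 10 tested genes of glutamine uptake and use, 0 were called, with a median of 0.00. SLC1A5, the main glutamine importer, had 3152 and 2008 counts (ratio -0.48), and SLC7A5 had -0.21.

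Genes of monoamine and organic cation handling went both ways. Of 8 tested, 3 were higher and 2 lower with the counting interval, beside 12.2% and 11.9% of all genes tested. HNMT, which inactivates histamine, had 33 and 96 counts (ratio 1.69), MAOB, a mitochondrial monoamine oxidase, 44 and 79 (1.00), and the carnitine transporter SLC22A5 48 and 89 (1.05). The wider intervals of all 3 held 0. SLC47A1, an exporter of organic cations, had 273 and 96 counts (-1.34, wider interval -2.83 to -0.10). SLC6A4, the serotonin transporter, was listed at 0 in both libraries.

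In the CLIC family, CLIC1 dominated. It had 18083 and 13561 counts (ratio -0.25) and 94.2% of the family's summed FPKM in shCtrl, against 78.0% in shWBSCR22, while CLIC3 took 5.11% and 20.4%. CLIC4 was called higher with both intervals, with 304 and 641 counts (ratio 1.24, wider interval 0.58 to 1.91). Of 8 other chloride channel genes tested, 0 were higher and 1 was lower, the endosomal exchanger CLCN6 (74 and 31 counts, -1.08, wider interval -4.26 to 1.15). Among 10 tested genes of the recycling route in which CLIC3 acts, 0 were higher and 2 lower. TGM2, a transglutaminase that CLIC3 is known to activate outside the cell, had 1842 and 669 counts (-1.29, wider interval -1.79 to -0.83), and RAB11FIP1, a recycling adaptor, 63 and 25 (-1.15, -4.88 to 1.30). RAB25, with which CLIC3 works in integrin recycling, was listed at 0 in both libraries. ITGA5, the fibronectin receptor chain, had 13129 and 16521 counts (0.50).

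VIPR2 belongs to the class B receptors, which bind peptide hormones. Of 17 other receptors and ligands on that list, 9 had no row, 3 were at 0 in both libraries and 5 were tested. Of these, 4 were higher and 1 lower by the counting interval (2 and 0 by the wider interval). The shares higher and lower over all genes tested were 12.2% and 11.9% by counting, and 4.19% and 2.98% by the wider interval. GCGR, the glucagon receptor, had 154 and 381 counts (ratio 1.47, wider interval 0.56 to 2.41). GLP2R, a receptor of the gut hormone glucagon-like peptide 2, had 85 and 248 (1.71, 0.51 to 2.97). GIPR, an incretin receptor, had 51 and 107 (1.23, -0.53 to 3.03), and PTH1R, the parathyroid hormone receptor, 0 and 48. With 0 counts in shCtrl, PTH1R passed the filter only through shWBSCR22, so it could not be called lower. VIPR1, the other receptor of vasoactive intestinal peptide, had 73 and 16 counts (-1.99, -7.20 to 0.76), so its ratio lay on the other side of 0 from that of VIPR2. The ligand gene VIP was listed at 0 in both libraries. Downstream, 0 of 19 tested cyclic AMP pathway genes were called, with a median of 0.08, and GNAS, the stimulatory G protein, had 6267 and 5438 counts (-0.04). Of 8 tested genes that respond to cyclic AMP, 2 were higher and 0 lower by the counting interval and 1 was higher by the wider interval. These were DUSP1, a phosphatase of MAP kinases, with 333 and 640 counts (1.11, 0.46 to 1.76) and NR4A1, an immediate early nuclear receptor, with 0 and 34 (wider lower bound -0.96). NR4A1 likewise passed the filter only through shWBSCR22.

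Of the other TMBIM genes, 4 were tested and 0 were called. GRINA had 183 and 202 FPKM (ratio 0.23), TMBIM6, an inhibitor of apoptosis in the endoplasmic reticulum, 89.6 and 93.6 (0.15), GHITM of the mitochondrial inner membrane 48.1 and 40.9 (-0.15), and TMBIM1 5.08 and 3.84 (-0.32). FAIM2, too low to be tested, had 0 and 24 counts. TMBIM4 moved from place 5 to place 4 of 6, above TMBIM1, and took 0.443% of the family sum in shCtrl and 2.57% in shWBSCR22. Of 16 tested genes of calcium stores and the BCL2 family, 3 were higher and 0 lower by the counting interval. Beside this stand 12.2% and 11.9% of all genes tested. ITPR1, a calcium release channel, had 86 and 216 counts (1.49, wider interval 0.25 to 2.78), ATP2A3, a calcium pump, 238 and 430 (1.02, 0.23 to 1.81), and ITPR3 44 and 79 (1.00, -1.03 to 3.03). BAX, an effector of apoptosis, had 3055 and 2332 counts (-0.22).

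Of the SPINK family, SPINK4 and SPINK6 were tested beside SPINK13. SPINK4, known from goblet cells, was higher with both intervals, at 226 and 449 counts (ratio 1.15, wider interval 0.36 to 1.95). SPINK6, an inhibitor of kallikreins in skin, had 516 and 472 counts (0.04). SPINK1, the pancreatic trypsin inhibitor, had 5 and 0 counts. SPINK13 went from place 4 to place 3 of 6 by FPKM. Of 4 tested genes on a list of Kunitz inhibitors, membrane serine proteases and the urokinase system, 0 were called, among them PLAUR, the urokinase receptor (1750 and 899 counts, -0.79).

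**Figure D4:**
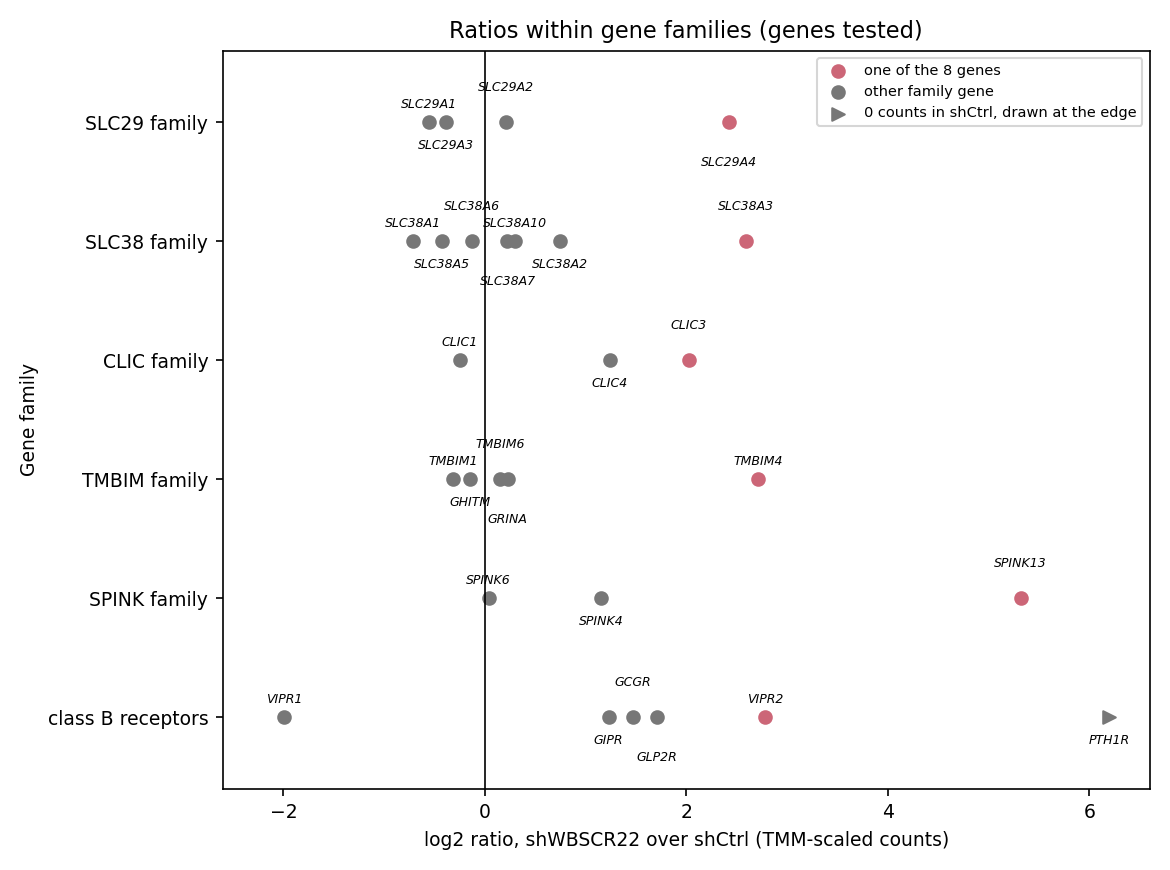
Ratio on the log2 scale (horizontal) of the tested genes of 6 families (vertical), with the described genes in red and their relatives in grey; a triangle marks a gene with 0 counts in shCtrl, drawn at the edge. In the SLC29, SLC38 and TMBIM families the relatives lie between -0.71 and 0.75, and 4 of 5 class B relatives of VIPR2 lie above 1. Of these 4, PTH1R passed the filter only through shWBSCR22. The share called higher over all genes tested was 12.2% by the counting interval.

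Of 14 partners of harmonin on a list, 9 had a row and 5 were tested. Of these, 2 were higher, 1 lower and 2 neither with the counting interval, which called 12.2% of all genes tested higher and 11.9% lower. CDHR2, a protocadherin that links the tips of microvilli, had 9 and 74 counts (ratio 3.14, wider interval 0.14 to 8.28), and CDHR5, its binding partner, 31 and 102 (1.87, -0.13 to 4.15). MYO7B, the myosin that carries this complex, had 31 and 13 counts (-1.06, -7.41 to 2.41). WHRN, a PDZ scaffold related to harmonin, had 695 and 387 (-0.68). Of 13 tested brush border genes, 3 were higher and 2 lower. ESPN, an actin-bundling protein, had 299 and 710 counts (1.41, 0.76 to 2.07) and was the only one of these higher with the wider interval. STX3, a syntaxin of apical membrane traffic, had 156 and 33 (-2.06, -5.02 to -0.10) and was the only one lower. MYO6, EPS8 and MYO5B, with 1.38, 1.14 and -1.95, had wider intervals that held 0. EZR, which links actin to the membrane, had 3353 and 3975 counts (0.41). In shWBSCR22, beside 4.18 FPKM for USH1C, WHRN had 4.56 FPKM, CDHR5 1.72 and CDHR2 0.904.

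The genes do not lie in 1 region of the genome. They are on 7 chromosomes, and the pair on chromosome 7, SLC29A4 and VIPR2, lies near opposite ends of it. Within 100 kb of the genes 57 other genes had a row and 44 were tested, of which 7 were higher and 4 lower by the counting interval (2 and 1 by the wider interval). Of all genes tested, 12.2% were higher and 11.9% lower by counting. By the wider interval the shares over all genes tested were 4.19% and 2.98%. The median ratio of the neighbours was 0.19. Higher by the wider interval were LCN12 near CLIC3 (79 and 207 counts, 1.55) and HYAL1 near SLC38A3 (204 and 479, 1.40). IFRD2 near SLC38A3 was lower (796 and 184, -1.94). FUT7 near CLIC3 (0 and 42 counts) and BRSK1 near TMEM238 (11 and 42) were at least 4-fold higher, with wider intervals that held 0. FUT7 passed the filter only through shWBSCR22. Of 10 tested genes that overlap 1 of the genes or are its nearest neighbour, 1 was called higher, WDR60 beside VIPR2 (29 and 63 counts, 1.27, wider interval -1.14 to 3.80). RPL28, on the other strand with a gap of 0.747 kb to TMEM238, had 63720 and 66777 counts (0.23), and PAXX, the nearest neighbour of CLIC3, 7687 and 7523 (0.13). GNAI2, 4.81 kb from SLC38A3, had 4683 and 4696 counts (0.17). ABCC8 next to USH1C and TMEM190 next to TMEM238 had 0 counts in both libraries, and SPINK7 next to SPINK13 had 0 and 9.

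In GENCODE release 29, 4 of the genes overlap another gene. SLC29A4 overlaps the end of TNRC18 on the other strand, which had 371 and 187 counts (-0.82). VIPR2 overlaps LINC00689 on the other strand, with 30 and 50 counts (0.89). TMBIM4 overlaps AC078927.1 on the same strand and SPINK13 an antisense gene, AC091948.1. No row of counts overlapped TMBIM4 or SPINK13, so AC078927.1 and AC091948.1 could not be analysed. How strand and shared reads were treated in counting is unstated in the labels, so the counts of the 4 genes are uncertain to that extent.

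**Figure D5:**
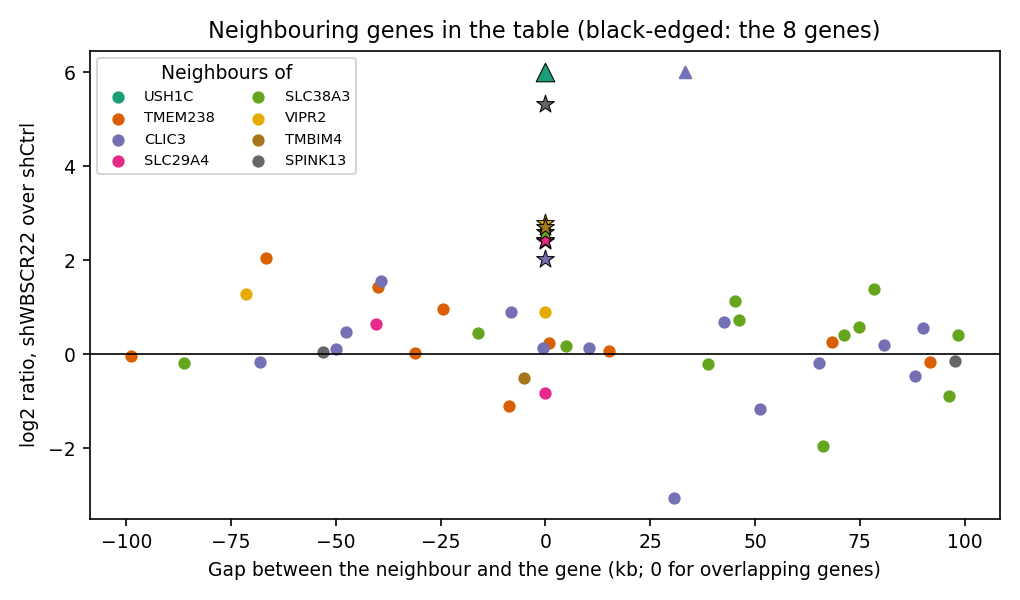
Ratio on the log2 scale (vertical) of tested neighbouring genes against their gap to the gene in kb (horizontal, negative towards lower coordinates, 0 for overlap), coloured by gene; black-edged marks are the genes themselves, and triangles have 0 counts in shCtrl and are drawn at 6. Neighbours nearest to the genes lie between -0.82 and 1.27, below all 8 genes.

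Outside the 8 genes, the gene most like each in both libraries was found by the distance of log2 CPM over 2 libraries, as a description. For SLC38A3 and for TMBIM4 this was ZNF467, a zinc-finger protein, with 114 and 513 counts, at distances of 0.186 and 0.276. For CLIC3 and TMEM238 it was NUDT8, a Nudix hydrolase, with 726 and 2083 counts, at 0.293 and 0.503. NUDT18 lay nearest to SLC29A4 (0.372), MIR210HG to VIPR2 (0.349), NOVA2 to SPINK13 (0.525) and LRG1 to USH1C (1.45). LRG1 had 0 and 115 counts, and no gene listed at 0 in shCtrl had more than 314.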

How the data were processed

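Sequencing libraries, 1 per group, were made from total RNA with Illumina's TruSeq kit, as the labels' protocols state. HISAT2, StringTie, DESeq, bcl2fastq and FastQC are named in the submitters' processing notes together with the build GRCh38, without versions, roles or order. The counting program and the use of strand are unstated in the labels. Raw counts per gene were deposited by the authors as whole numbers with unequal library totals. The authors also deposited FPKM per gene, which were 0 exactly where the count was 0. Groups were taken from the treatment label.

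Ratios used counts scaled by TMM factors of 1.03 and 0.971 (R 4.3.3, edgeR 4.0.16) with 0.5 counts added, for the 12980 genes at 1 CPM or more on average. Intervals were exact conditional binomial (Clopper-Pearson) 95% intervals, computed with scipy 1.17.1. The wider ones divided counts by the most frequent low count above 0 of each library, 8 and 15, after averaging over 3 neighbouring counts. A gene was called at 2-fold with an interval that excluded 0, and no p-value was computed. Intervals cover counting error only and no spread between libraries, since each group had 1 library. Reads that carry no molecular identifier can be copies of 1 molecule, which the counting interval does not allow for. The ratio, the counting interval and its calls were tested on simulated counts with independent reads and scaling by library totals. The wider interval was not simulated. The described genes, the lists and the intervals were chosen with earlier results of these data known. Genes named from a list were those called or up to 4 of the most abundant. Nearest neighbours, the nearest gene in both libraries and the target were also named. CDKN2A, LRG1, ISG15, MAFA, OASL, some list members that were not called and neighbours other than the nearest were named after their values were seen. Some genes of the lists are counted but not reported here by name. The alternatives tried were scaling by upper quartile, by total count or by DESeq2 1.42.0, adding 2 counts, deposited FPKM with pseudocounts of 0.1 and 1, no filter, a mean of at least 5 CPM, the wider interval, and a 4-fold rule.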

Additional observations from a re-analysis of the deposited data

How the results depend on the processing

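All 8 genes stayed above 0 under the 6 alternatives of scaling, added counts and unit. With other scalings the ratio ran from 2.31 to 2.41 for TMEM238, from 1.94 to 2.04 for CLIC3, from 2.34 to 2.43 for SLC29A4, from 2.51 to 2.61 for SLC38A3, from 2.69 to 2.79 for VIPR2, from 2.63 to 2.73 for TMBIM4 and from 5.23 to 5.33 for SPINK13. With a pseudocount of 1 on the FPKM, which shrinks low values by construction, ratios fell to 1.87 for SLC29A4, 1.96 for SLC38A3, 1.80 for VIPR2, 2.03 for TMBIM4, 2.77 for SPINK13 and 2.37 for USH1C, and 4 genes then reached 4-fold. At a mean of at least 5 CPM, SPINK13 was no longer tested and 7 genes were called. Over all genes tested, 1586 were higher and 1546 lower. With total-count scaling there were 1433 and 1747, and with FPKM and a pseudocount of 0.1 there were 1244 and 1505, so the direction with more genes turned. The counts were 520 and 455 with FPKM and a pseudocount of 1, 2889 and 3799 with no filter, 582 and 572 at 5 CPM or more, 544 and 387 with the wider interval, and 480 and 527 with the 4-fold rule. Total-count scaling moved the median of all genes tested by -0.09. Depth limits SPINK13 and USH1C most, whose control levels rest on 3 and 0 counts. No paired analysis was possible because each group had 1 library, and no library could be left out for the same reason.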
